A study of Mus musculus with 12 samples.

Results

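A group of 10 genes that report on the ERK branch of receptor tyrosine kinase signalling was followed through cultured mouse embryonic salivary glands. They are 4 phosphatase genes (Dusp1, Dusp4, Dusp5 and Dusp6) and 6 immediate early genes (Egr1, Egr2, Fos, Ier2, Ier3 and Phlda1), taken by symbol from a table of 52636 genes. All 10 passed the filter on low counts, which kept 15859 genes. FGF receptors activate the kinase cascade from RAF through MEK to ERK, and active ERK switches on immediate early genes within minutes without new protein synthesis. Dual-specificity phosphatases, encoded by the Dusp genes, remove the activating phosphates from ERK and related kinases, and several are themselves induced by ERK, which makes them feedback inhibitors. In the salivary gland, FGF receptor signalling in the epithelium drives the growth and branching of the end buds.

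RNA was sequenced from E13.5 embryonic glands that were cultured for 2 days on membranes. FGFRi libraries (n = 3) came from wild-type glands given SU5402, a small-molecule inhibitor of FGF receptor kinases, at 2.5 µM, and DMSO libraries (n = 3) from wild-type glands given the solvent. HOM libraries (n = 2) came from untreated K14Cre-Fgfr2b -/- glands, in which Cre under the keratin 14 promoter removes the epithelial isoform of FGF receptor 2 in cells that use that promoter, so the mesenchyme is not targeted. HET (n = 2) and WT (n = 2) libraries came from untreated heterozygous and wild-type littermate glands. Counts over a whole gene do not separate the Fgfr2b exon, so the deletion was not checked from them. Whether each library is a separate embryo or litter is not stated in the labels, so p-values cover the spread among these libraries only, part of which may be technical.

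Total counts ran from 6043701 to 22322182 per library, of which 12.4 to 26.7% fell on features that resemble ribosomal RNA and 3.93 to 14.2% on mitochondrial genes. The tissue label was checked against 16 epithelial marker genes, and none of them was at 0 in any group. Their summed level was 2203 to 2514 CPM (read counts normalised by TMM to a common library size) in FGFRi libraries against 3078 to 3578 CPM in DMSO libraries, and 2145 to 2258 CPM in HOM libraries against 2712 to 2943 CPM in HET and 3164 to 3291 CPM in WT libraries. The sum of 17 mesenchymal markers was 4210 to 5784 CPM in FGFRi libraries against 2542 to 2689 CPM in DMSO libraries, and 4462 to 4652 CPM in HOM libraries against 3950 to 4322 CPM in HET and 2777 to 2893 CPM in WT libraries. In whole glands, fewer cells of a type and less RNA per cell cannot be told apart. By Xist and Y-linked genes both HOM libraries read as female and all HET and WT libraries as male, so sex and the homozygous genotype cannot be told apart, while FGFRi libraries read as female and DMSO libraries as 2 female and 1 male.

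Promoter sequences are shown for 4 of the genes because short DNA words in them bear on how immediate early genes are usually induced: the CArG box is the element bound by serum response factor, and TGACGTCA is the cyclic AMP response element. RefSeq windows (build GRCm38.p6, 250 bases before to 50 bases after the start site) were at hand for 6 of the 10 genes, not for Dusp4, Egr1, Ier2 or Phlda1. Each is printed 5′ to 3′ on the gene's strand, with motif matches in capitals. The Dusp5 window is chr19:53528895-53529194 (plus strand), the Egr2 window chr10:67537619-67537918 (plus strand), the Dusp1 window chr17:26508423-26508722 (minus strand) and the Dusp6 window chr10:99262981-99263280 (plus strand).
Dusp5: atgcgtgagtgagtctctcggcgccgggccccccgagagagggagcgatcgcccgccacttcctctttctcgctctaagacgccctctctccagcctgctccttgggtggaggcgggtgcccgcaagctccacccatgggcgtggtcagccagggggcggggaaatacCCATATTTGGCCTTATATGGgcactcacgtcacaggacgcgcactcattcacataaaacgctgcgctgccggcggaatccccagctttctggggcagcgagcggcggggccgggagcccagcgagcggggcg
Egr2: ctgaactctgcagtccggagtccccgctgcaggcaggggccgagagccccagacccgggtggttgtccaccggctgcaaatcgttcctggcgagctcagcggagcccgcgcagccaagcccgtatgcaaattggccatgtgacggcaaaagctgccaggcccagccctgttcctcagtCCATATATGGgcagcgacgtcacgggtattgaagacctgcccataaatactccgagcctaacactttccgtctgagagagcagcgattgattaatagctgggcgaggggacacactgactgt
Dusp1: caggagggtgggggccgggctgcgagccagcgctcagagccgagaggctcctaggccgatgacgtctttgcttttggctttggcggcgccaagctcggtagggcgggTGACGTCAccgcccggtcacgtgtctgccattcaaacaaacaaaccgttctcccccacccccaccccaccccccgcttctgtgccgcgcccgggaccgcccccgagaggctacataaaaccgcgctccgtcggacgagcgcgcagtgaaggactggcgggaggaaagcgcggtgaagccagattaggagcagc
Dusp6: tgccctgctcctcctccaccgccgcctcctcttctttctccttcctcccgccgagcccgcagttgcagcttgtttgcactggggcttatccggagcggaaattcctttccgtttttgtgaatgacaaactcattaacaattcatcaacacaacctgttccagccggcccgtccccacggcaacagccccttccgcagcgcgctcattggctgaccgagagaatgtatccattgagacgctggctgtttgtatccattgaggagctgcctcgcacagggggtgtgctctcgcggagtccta
The Dusp5 window holds 2 CArG boxes that abut, CCATATTTGG at -82 to -73 and CCTTATATGG at -72 to -63 from the start site. In the Egr2 window shown, a CArG box, CCATATATGG, lies at -72 to -63. A CArG box is in 4 of the 5 Egr2 windows, but some of these overlap and share CCATATATGG, and the only other box is CCTTTTTTGG. The Dusp1 window has TGACGTCA at -143 to -136. The Dusp6, Fos and Ier3 windows held none of the 4 motifs searched on both strands, which were the CArG box, the ETS word CCGGAAG, TGACGTCA and the AP-1 word TGANTCA. Across all 32851 windows of the same length, 1.63% held a CArG box, 8.86% CCGGAAG, 1.79% TGACGTCA and 7.81% TGANTCA. A match is a description of the sequence alone, and no binding was measured. A window without a match does not show that the gene lacks the motif, since bases more than 250 before the start site were not searched.

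With the inhibitor, expression of 3 of the 4 phosphatase genes and 2 of the 6 immediate early genes fell relative to DMSO glands. Egr1 and Dusp4 were lowest in proportion, at 0.410 and 0.497 times their DMSO levels, followed by Dusp5 at 0.567, Ier2 at 0.661 and Dusp6 at 0.747. None of the 10 rose, and Dusp1, Egr2, Fos, Ier3 and Phlda1 did not pass the test. A gene was called at a Benjamini-Hochberg adjusted p under 0.05 over all 15859 genes in edgeR's quasi-likelihood test. Over all genes tested, 10.7% were called lower and 9.73% higher, against 5 and 0 of the 10. The median log2 fold change of the 10 was -0.50, against -0.02 over all genes.

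**Figure D1:**
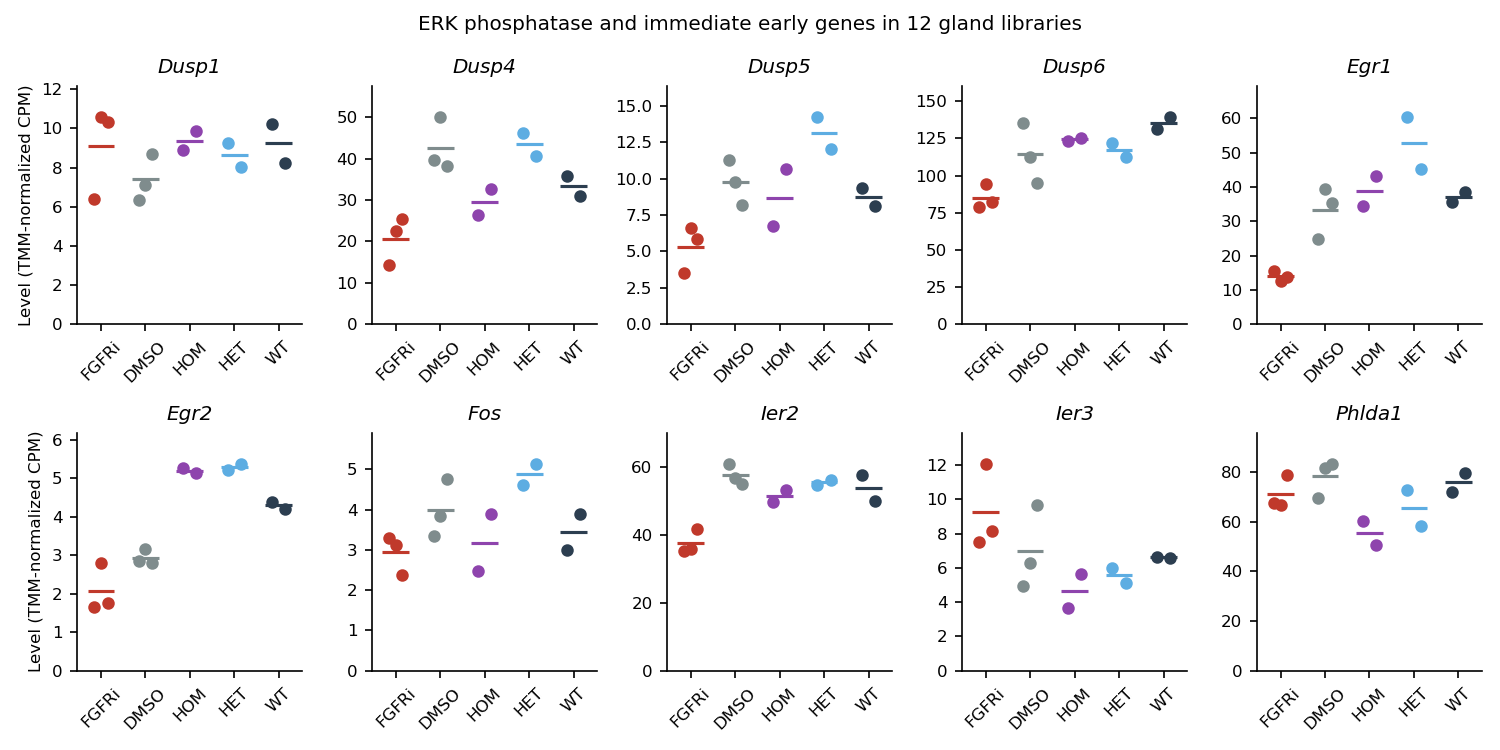
Level of each of the 10 genes in every library, in TMM-normalised CPM on an axis per gene that starts at 0; points are libraries, short lines are group means, and groups run FGFRi, DMSO, HOM, HET, WT. Egr1 lies at 12.6 to 15.6 CPM in the 3 FGFRi libraries and at 25.0 CPM or above in every other library.

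Dusp6 encodes a cytoplasmic phosphatase that is selective for ERK and is a classical FGF target in embryos. It had the highest level of the 4 phosphatase genes, in CPM that are not scaled for gene length. Dusp6 stood at 78.7, 94.2 and 82.5 CPM in FGFRi libraries, against 136, 112 and 94.7 CPM in DMSO libraries. The groups did not overlap, but the highest FGFRi library and the lowest DMSO library lay within 1 CPM of each other. The log2 fold change was -0.42 ± 0.11 (SE; adjusted p = 0.0113). That call was lost without FGFRi library 1 (adjusted p = 0.0742) and without DMSO library 1 (0.0506). It was also lost with library totals in place of TMM (0.303) and in a fit of these 6 libraries alone (0.0510). FGFRi library 1 had the highest rRNA-like and mitochondrial shares of the 12 libraries (26.7% and 14.2%).

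Dusp4 encodes an inducible nuclear phosphatase that acts on ERK and on JNK. Its level was 14.3, 22.5 and 25.3 CPM in FGFRi libraries, against 39.6, 49.998 and 38.1 CPM in DMSO libraries. The highest FGFRi library was well below the lowest DMSO library, and below all HOM, HET and WT libraries as well. Its log2 fold change was -1.01 ± 0.16 (SE; adjusted p = 0.00062), and the call held with each of the 6 libraries left out, at -1.19 to -0.82.

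Dusp5 encodes a nuclear phosphatase specific for ERK, and is the gene with the paired CArG boxes. It was scarce, with 19, 61 and 106 counts in FGFRi libraries and 71, 188 and 50 counts in DMSO libraries. In CPM it stood at 3.49, 6.59 and 5.87 in FGFRi libraries, against 11.3, 9.78 and 8.21 in DMSO libraries. The groups did not overlap, and the lowest value was in FGFRi library 1, which was also the shallowest of its group. Its change was -0.82 ± 0.22 on the log2 scale (SE; adjusted p = 0.0168), and the call was lost without FGFRi library 1 (adjusted p = 0.0710) or without DMSO library 1 (0.0506). Without FGFRi library 1 or without DMSO library 1, 3 of the 10 genes were called lower.

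Dusp1 encodes a nuclear phosphatase that is induced by stress as well as by growth factors and acts on p38 and JNK as well as on ERK. It had 6.42, 10.6 and 10.3 CPM in FGFRi libraries, against 6.37, 7.13 and 8.70 CPM in DMSO libraries. The groups overlapped through FGFRi library 1. The log2 fold change was 0.36 ± 0.19 (SE; 95% interval -0.04 to 0.76, adjusted p = 0.203), so a fall of the size seen in Dusp4 lies outside the interval. In the annotation used here Dusp1 overlaps Ergic1 on the other strand, and Dusp5 an antisense transcript. The labels do not state that counting used strand, and reads of such pairs cannot be told apart.

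Egr1, a zinc finger transcription factor and the textbook readout of ERK activity in the nucleus, showed the largest change of the 10. Its level was 15.6, 12.6 and 13.8 CPM in FGFRi libraries, against 25.0, 39.3 and 35.5 CPM in DMSO libraries. All 3 FGFRi libraries lay close together, below each of the other 9 libraries. The log2 fold change was -1.29 ± 0.17 (SE; 95% interval -1.64 to -0.93, adjusted p = 0.000115), and it stayed between -1.45 and -1.12, and called, with each of the 6 libraries left out.

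Egr2, a relative of Egr1 best known for hindbrain and Schwann cell development, was among the scarcest of the 10 genes, with as few as 9 counts in a library. It had 1.65, 2.81 and 1.77 CPM in FGFRi libraries, against 2.87, 3.17 and 2.79 CPM in DMSO libraries. FGFRi library 2 overlapped the lowest DMSO library. The log2 fold change was -0.52 ± 0.25 (SE; 95% interval -1.05 to 0.01, adjusted p = 0.156). Fos, which encodes a subunit of the AP-1 transcription factor, had 3.30, 3.13 and 2.38 CPM in FGFRi libraries, against 3.34, 3.85 and 4.76 CPM in DMSO libraries. The Fos groups did not overlap, by a margin of far less than 1 CPM, and the change of -0.47 ± 0.26 did not pass the test (SE; 95% interval -1.03 to 0.09, adjusted p = 0.228). For both genes a fall as large as that of Dusp5 lies inside the interval.

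Ier2 encodes a small nuclear protein and is one of the most rapidly induced serum response genes. Its level was 35.2, 36.1 and 41.9 CPM in FGFRi libraries, against 61.1, 56.8 and 55.0 CPM in DMSO libraries. Spread within each group was small beside the gap between them, and Ier2 had the lowest fitted biological variation of the 10 genes (coefficient 0.0741). The log2 fold change was -0.60 ± 0.09 (SE; adjusted p = 0.000349), at -0.69 to -0.53 and called with each of the 6 libraries left out. With library totals in place of TMM the change was -0.58 and no longer called (adjusted p = 0.0590).

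Ier3, a stress-inducible gene linked to cell survival, had 7.52, 12.1 and 8.13 CPM in FGFRi libraries, against 4.93, 6.295 and 9.69 CPM in DMSO libraries. DMSO library 3 lay within the FGFRi range, and the log2 fold change was 0.44 ± 0.24 (SE; 95% interval -0.08 to 0.96, adjusted p = 0.233). Phlda1, a pleckstrin homology-like domain gene induced by growth factors, had 67.5, 66.7 and 78.7 CPM in FGFRi libraries, against 69.7, 81.8 and 83.4 CPM in DMSO libraries. Its groups overlapped, and the log2 fold change of -0.14 ± 0.11 had a 95% interval of -0.36 to 0.09 (adjusted p = 0.404). In all, every FGFRi library lay below every DMSO library for 6 of the 10 genes (the 5 called and Fos), against 20.5% of all genes tested.

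**Figure D2:**
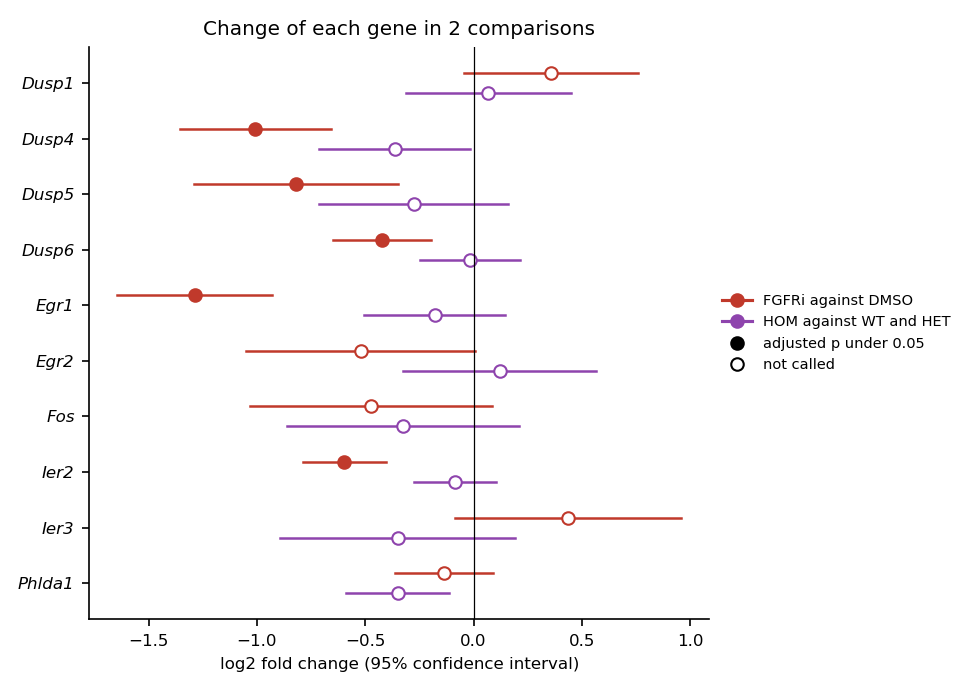
Log2 fold change of each gene with its 95% interval for FGFRi against DMSO (upper, red) and for HOM against WT and HET (lower, purple); filled points were called at an adjusted p under 0.05. For FGFRi against DMSO the intervals of Egr1, Dusp4, Dusp5, Ier2 and Dusp6 lie below 0, and none of the 10 genes was called for HOM.

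The epithelial marker sum was lower in the same FGFRi libraries, which bears on the scale of each change. When libraries were scaled to the summed counts of the 16 epithelial markers in place of TMM, the median of all genes moved from -0.02 to 0.47 on the log2 scale. On that scale Egr1 stayed lower at -0.80 (adjusted p = 0.00147) and Dusp4 at -0.53 (0.00554), whereas Dusp5 at -0.35 (0.162) and Ier2 at -0.12 (0.334) were no longer called and Dusp6 turned to 0.07 (0.564). Dusp1 at 0.82 (0.00275), Ier3 at 0.91 (0.00847) and Phlda1 at 0.34 (0.0223) were then called higher. Relative to the moved median, the changes were -1.27 for Egr1, -1.01 for Dusp4, -0.82 for Dusp5, -0.59 for Ier2 and -0.40 for Dusp6. These stay near the TMM changes by construction, because scaling shifts all genes of a library alike, so they are no further result. The split of all called genes was 1543 higher and 1702 lower with TMM, 1018 and 285 with library totals and 8949 and 149 with epithelial scaling. These alternatives were computed because expression per gland and expression per epithelial transcript differ when the tissue makeup differs, and what part the makeup had in each change was not tested beyond them.

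**Figure D3:**
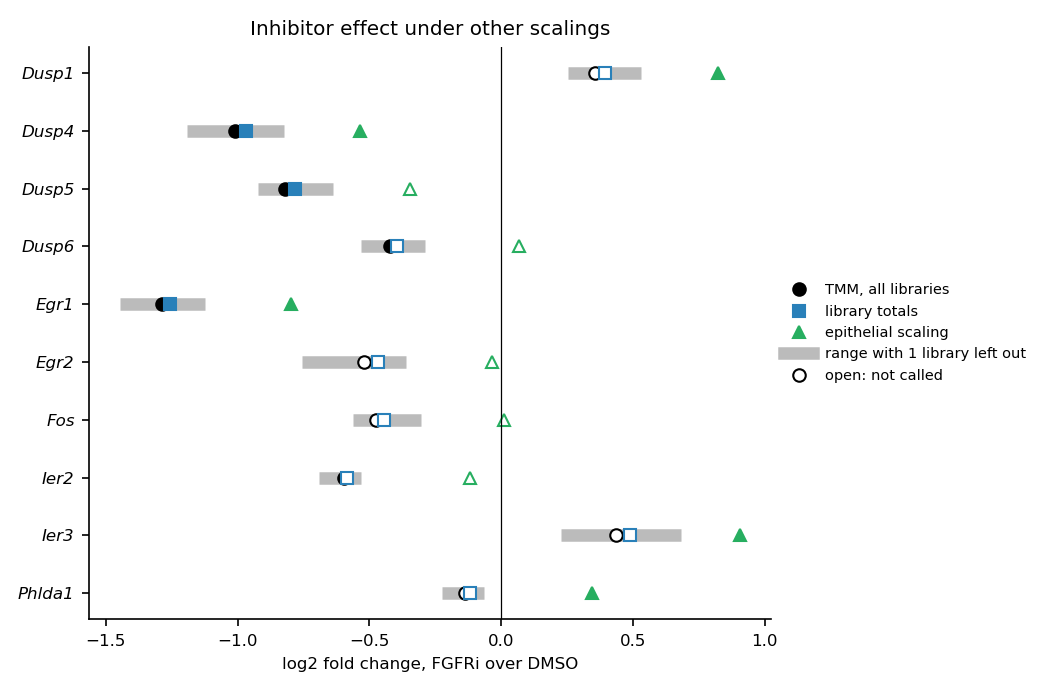
Log2 fold change, FGFRi against DMSO, of each gene under TMM, library totals and epithelial scaling; filled symbols were called at an adjusted p under 0.05, and grey bars span the TMM values with 1 library left out in turn. Epithelial scaling, which moves the median of all genes to 0.47, leaves Egr1 and Dusp4 called lower, and Dusp6 turns to 0.07.

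In the genetic comparison, none of the 10 genes differed between HOM glands and the joined WT and HET glands at an adjusted p under 0.05 in edgeR, against 5.88% of all genes tested in either direction. At an unadjusted p under 0.05 there were 2, Dusp4 and Phlda1, and the share of all genes at that threshold was not computed. By limma-voom 0 of the 10 were called, and by DESeq2 1, Phlda1. The median log2 fold change of the 10 was -0.23, against 0.00 over all genes. In none of the 10 did HOM libraries lie entirely above or below the 4 controls, for which the share of all genes was not computed.

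Among the phosphatase genes, Dusp6 had 123 and 125 CPM in HOM libraries, against 122 and 113 CPM in HET and 131 and 139 CPM in WT libraries. The HOM values fell between those of both control genotypes, and the log2 fold change was -0.02 ± 0.11 (SE; 95% interval -0.25 to 0.21). Dusp4 had 26.3 and 32.6 CPM in HOM libraries, against 46.1 and 40.7 CPM in HET and 35.9 and 30.9 CPM in WT libraries. HOM libraries lay below both HET libraries but overlapped the WT libraries. The Dusp4 change was -0.36 ± 0.16 (SE; 95% interval -0.71 to -0.02, adjusted p = 0.231).

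Dusp5 had 6.72 and 10.7 CPM in HOM libraries, against 14.2 and 12.1 CPM in HET and 9.37 and 8.11 CPM in WT libraries. Its order was like that of Dusp4, with HOM below HET and across the WT range, and the change was -0.28 ± 0.20 (SE; 95% interval -0.71 to 0.16, adjusted p = 0.519). Dusp1 had 8.88 and 9.85 CPM in HOM libraries, against 9.24 and 8.04 CPM in HET and 10.3 and 8.21 CPM in WT libraries. The Dusp1 groups overlapped fully, with a change of 0.07 ± 0.18 (SE; 95% interval -0.31 to 0.45, adjusted p = 0.893).

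For the nuclear factors, Egr1 had 34.6 and 43.2 CPM in HOM libraries, against 60.4 and 45.2 CPM in HET and 35.7 and 38.6 CPM in WT libraries. HOM overlapped WT and lay below HET, and the joined change was -0.18 ± 0.15 (SE; 95% interval -0.50 to 0.14, adjusted p = 0.584). Egr2 had 5.28 and 5.13 CPM in HOM libraries, against 5.22 and 5.39 CPM in HET and 4.39 and 4.22 CPM in WT libraries. Its change was 0.12 ± 0.21 (SE; adjusted p = 0.827). Fos stood at 2.48 and 3.89 CPM in HOM libraries, against 4.62 and 5.15 CPM in HET and 3.003 and 3.89 CPM in WT libraries, and overlapped (-0.33 ± 0.25, SE; adjusted p = 0.538).

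Ier2 had 49.8 and 53.5 CPM in HOM libraries, against 54.9 and 56.4 CPM in HET and 57.9 and 50.1 CPM in WT libraries. Its interval was narrow, at -0.28 to 0.11 around -0.09, and does not reach the change of -0.60 seen with the inhibitor. Ier3 had 3.68 and 5.63 CPM in HOM libraries, against 5.98 and 5.15 CPM in HET and 6.66 and 6.59 CPM in WT libraries, a change of -0.35 ± 0.25 (SE; adjusted p = 0.509). Phlda1 had 60.2 and 50.8 CPM in HOM libraries, against 72.7 and 58.4 CPM in HET and 72.0 and 79.8 CPM in WT libraries. HOM overlapped the controls through HET library 2 alone, and the change was -0.35 ± 0.11 (SE; 95% interval -0.59 to -0.11, adjusted p = 0.0818). Against WT alone the Phlda1 change was -0.45 ± 0.13 and called (SE; adjusted p = 0.0422), and against HET alone -0.25 ± 0.13 and not called (0.457). Against both control genotypes without HET library 2 it was -0.43. Against HET alone 0 of the 10 genes were called. Fos, Dusp5, Dusp4 and Egr1 then stood at -0.58, -0.57, -0.55 and -0.44 (adjusted p = 0.192 to 0.417). Against WT alone the same genes stood at -0.07, 0.01, -0.18 and 0.08. With epithelial scaling, under which the median of all genes moved to 0.45, 4 of the 10 genes were called higher in HOM glands, against 9022 of the 15859 genes tested. Among them were Dusp6 at 0.44 (adjusted p = 0.00272), which is close to that median, and Ier2 at 0.37 (0.0081), which is below it.

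Whether the inhibitor and the deletion acted to different extents was tested as the FGFRi effect minus the HOM effect. Egr1 and Ier2 differed, and both were lower with the inhibitor: the difference was -1.11 ± 0.22 for Egr1 (SE; 95% interval -1.59 to -0.63, adjusted p = 0.0178) and -0.51 ± 0.13 for Ier2 (SE; 95% interval -0.78 to -0.24, adjusted p = 0.0443). That is 2 of the 10 genes, against 1.41% of all genes tested that were called lower. The Egr1 difference was lost without FGFRi library 2 (adjusted p = 0.0545), without HOM library 2 (0.165) and without WT library 1 (0.0509), and was called with each of the other 9 libraries left out. The Ier2 difference was called in 2 of 12 such fits (without FGFRi library 3 and without DMSO library 3) and not in the other 10, where the adjusted p reached 0.250. Dusp4 at -0.64 ± 0.23 (SE; adjusted p = 0.155), Dusp6 at -0.40 ± 0.15 (0.180) and Ier3 at 0.79 ± 0.35 (0.276) had intervals that excluded 0 before adjustment and did not pass it. Dusp4 was called without the filter on low counts (-0.66, adjusted p = 0.00305) and Dusp6 without DMSO library 3 (-0.51, 0.0496). For Dusp5 (-0.54, adjusted p = 0.392), Egr2 (-0.64, 0.342), Fos (-0.15, 0.886), Dusp1 (0.29, 0.634) and Phlda1 (0.21, 0.534) the intervals included 0. The comparisons use separate control glands, and treated glands were exposed to the inhibitor in mesenchyme as well as in epithelium.

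The control groups were compared with each other in the same way, again without the share of all genes at an unadjusted p under 0.05. In HET against WT, 0 of the 10 genes were called by edgeR, limma-voom or DESeq2, against 1.22% of all genes in edgeR, and 2 had an unadjusted p under 0.05: Egr1 at 0.51 ± 0.18 (SE; adjusted p = 0.212) and Dusp5 at 0.58 ± 0.24 (0.299). Each HET library lay above each WT library for 5 of the 10 genes, Egr1 and Dusp5 among them, and below for 2. The share of all genes separated in this way was not computed, so these counts have no reference and are no result about the 10 genes. Means ± SD were 52.8 ± 10.8 CPM in HET and 37.1 ± 2.06 CPM in WT libraries for Egr1, and 13.1 ± 1.54 CPM in HET and 8.74 ± 0.897 CPM in WT libraries for Dusp5 (n = 2 each). In DMSO against WT, 0 of the 10 genes were called by edgeR, limma-voom or DESeq2, against 2.26% of all genes in edgeR, and 1 had an unadjusted p under 0.05. It was Egr2, at 2.94 ± 0.203 CPM in DMSO libraries (n = 3) and 4.30 ± 0.127 CPM in WT libraries (SD, n = 2), a log2 fold change of -0.53 ± 0.25 (SE; adjusted p = 0.356). Every DMSO library was below every WT library for 1 of the 10 genes, Egr2, and above for 1, Dusp4. Here too the share of all genes was not computed. The Egr2 log2 difference stands beside -0.52 for FGFRi against DMSO, neither of which passed the test.

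Other genes of the pathway were taken from lists compiled for the same purpose. Of all genes tested, 10.7% fell and 9.73% rose with the inhibitor, and 5.88% were called in either direction in HOM glands. Of 6 further MAP kinase phosphatase genes, 0 fell and 1 rose with the inhibitor (median log2 fold change 0.02). The one that rose was Dusp10, whose product acts mainly on JNK and p38, at 12.1 ± 4.18 CPM in FGFRi and 4.02 ± 1.66 CPM in DMSO libraries (SD, n = 3 each), a change of 1.63 ± 0.29 (SE; adjusted p = 0.00111). In HOM glands 1 of the 6 fell, Dusp16, another phosphatase of JNK and p38, at 36.4 ± 3.61 CPM in HOM libraries, against 42.9 ± 1.59 CPM in HET and 48.8 ± 3.11 CPM in WT libraries (SD, n = 2 each; log2 -0.34, adjusted p = 0.0256). The Dusp16 call was lost without HOM library 2 (-0.23, adjusted p = 0.387), HET library 1 or either WT library, and Dusp10 stayed called with each library left out.

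Of 30 other immediate early genes listed, 28 were tested, as Fosb and Egr4 did not pass the filter. Of the 28, 6 fell and 3 rose with the inhibitor (median -0.10), against 10.7% and 9.73% of all genes tested. The orphan nuclear receptor genes Nr4a1 and Nr4a2 were among those that fell. Nr4a2 averaged 34.5 ± 8.03 CPM in FGFRi and 81.4 ± 10.8 CPM in DMSO libraries (SD, n = 3 each), a change of -1.20 ± 0.13 (SE; adjusted p = 2.85e-05). Nr4a1 averaged 23.4 ± 3.73 CPM in FGFRi and 49.0 ± 6.75 CPM in DMSO libraries, a change of -1.04 ± 0.12 (SE; adjusted p = 4.13e-05). Ier5, a relative of Ier2, fell by 0.59 on the log2 scale (adjusted p = 0.00104), a call that was lost with library totals and with epithelial scaling. Klf2, a zinc finger factor best known from endothelium, rose by 1.39 ± 0.27 (SE; adjusted p = 0.0025).

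Against 5.88% of all genes called in either direction, 4 of the 28 fell and 0 rose in HOM glands, with a median of -0.15. They were Ccn2, a matricellular growth factor gene (log2 -0.85, adjusted p = 0.0145), Nfkbiz, a regulator of NF-kappaB (-0.67, 0.025), Btg2, an antiproliferative gene (-0.43, 0.0327), and Nr4a2 (-0.48, 0.0469). The Nr4a2 call was lost with each of the 6 libraries left out in turn, and the calls of Ccn2, Nfkbiz and Btg2 with 4, 4 and 5 of the 6. Among these, each was lost without HOM library 2 (Ccn2 at -0.98, adjusted p = 0.122; Nfkbiz at -0.92, 0.0734; Btg2 at -0.57, 0.0975), without HOM library 1 and without WT library 1.

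Another list held 19 other FGF and ERK response genes, such as ETS factors and Sprouty inhibitors. Of these, 11 fell and 2 rose with the inhibitor (median -0.38), against 10.7% and 9.73% of all genes tested. Those with the lowest p were the ETS factor genes Etv4 (-1.21 ± 0.11, SE; adjusted p = 6.22e-06) and Etv1 (-1.28 ± 0.15), the ephrin receptor gene Epha2 (-0.89 ± 0.11) and Shisa2 (-0.88 ± 0.11), which encodes an inhibitor of FGF and Wnt receptor maturation. In HOM glands 1 of the 19 fell and 4 rose (median 0.10), against 5.88% of all genes called in either direction. Etv1 fell (-0.80 ± 0.15, SE; adjusted p = 0.00657), whereas Spry4 (0.56 ± 0.10, 0.00342), Etv4 (0.56 ± 0.10, 0.00493) and Etv5 (0.52 ± 0.10, 0.00657) rose. Without HOM library 2 the calls of Etv1, Etv4 and Etv5 were lost (adjusted p of 0.171, 0.147 and 0.132), and Spry4 stayed called with each library left out. Against HET alone the Spry4 change was 0.25 ± 0.11 and not called (SE; adjusted p = 0.375), with means of 28.2 CPM in HOM, 23.6 CPM in HET and 15.3 CPM in WT libraries. With the library's sex as a covariate the changes were 0.78 ± 0.18 for Spry4, 0.44 ± 0.18 for Etv4, 0.40 ± 0.18 for Etv5 and -0.61 ± 0.25 for Etv1 (SE). None of these 4 was then called, with SEs larger than without the covariate. Only the DMSO group held both sexes, so the sex term rests on DMSO library 2, the only male library of that group.

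Genes that encode the cascade itself were also listed. Of 23 genes for its kinases and adaptors, 1 fell and 2 rose with the inhibitor (median 0.03), and 0 fell and 1 rose in HOM glands (median -0.01). Over all genes tested, 10.7% were called lower and 9.73% higher with the inhibitor, and 5.88% in either direction in HOM glands. Ksr1, a scaffold that brings RAF and MEK together, rose by 0.62 ± 0.14 with the inhibitor (SE; adjusted p = 0.00682) and by 0.56 ± 0.13 in HOM glands (0.0194). With the inhibitor, Rps6ka1, which encodes a kinase activated by ERK, fell by 0.30 on the log2 scale (adjusted p = 0.0202) and turned to 0.18 with epithelial scaling. Elk3, an ETS partner of serum response factor, rose by 0.64 ± 0.22 (SE; adjusted p = 0.0487), with libraries that overlapped. Leaving out FGFRi library 1 or 2 or DMSO library 1 or 2 ended the calls of Rps6ka1 (adjusted p up to 0.124) and Elk3 (up to 0.173). The HOM call of Ksr1 was lost without either HOM library, HET library 1 or WT library 2 (up to 0.150), against HET alone (0.40, adjusted p = 0.263) and with the sex covariate (0.46, 0.680). With library totals both Ksr1 calls were lost, at 0.64 with the inhibitor (adjusted p = 0.0740) and 0.70 in HOM glands (0.0506).

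**Figure D4:**
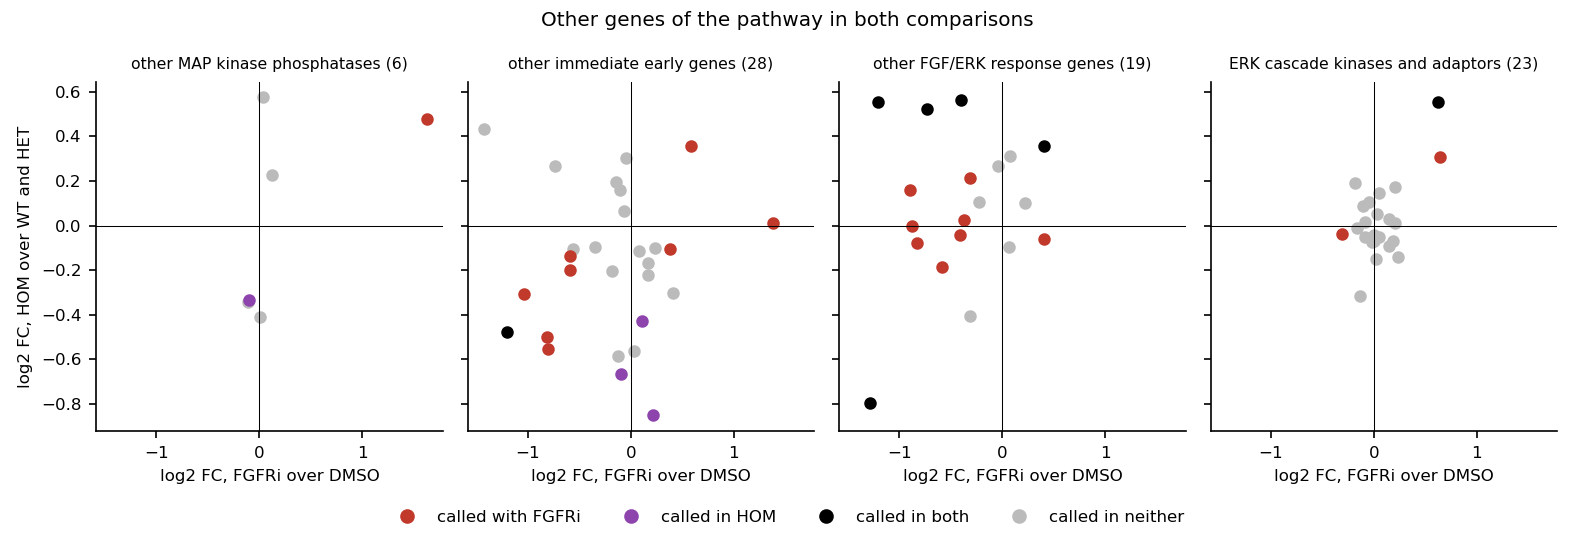
Log2 fold change of every tested gene of the 4 other lists, a panel per list, for FGFRi over DMSO (horizontal axis) against HOM over WT and HET (vertical axis); colours show in which comparison a gene was called. With the inhibitor 11 of 19 FGF and ERK response genes and 1 of 23 kinases and adaptors fell, against 10.7% of all genes tested.

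Marker genes of other cell types moved in the same comparisons. The shares of all genes called were 10.7% lower and 9.73% higher with the inhibitor, and 5.88% in either direction in HOM glands. With the inhibitor 16 of 16 epithelial markers fell (median log2 fold change -0.46), and 16 of 17 mesenchymal markers and 12 of 12 skeletal muscle markers rose (medians 1.02 and 2.997). In HOM glands 10 of 16 epithelial markers fell (median -0.38), and 13 of 17 mesenchymal and 8 of 12 muscle markers rose. Of 8 Schwann and glial markers, 5 rose and 1 fell with the inhibitor and 3 rose in HOM glands. Endothelial markers gave 1 lower and 1 higher of 8 with the inhibitor, and Cldn5 was at 0 counts in all FGFRi libraries. No macrophage marker (8 tested) was called, and 2 of 6 neuronal markers rose with the inhibitor.

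Dusp6 and Fos were also described by the genes most like them across the 12 libraries, by Pearson r of log2 CPM among 10373 genes for Dusp6 and 10374 for Fos, with no test, since the points share library depth and group. For Dusp6 the highest were Racgap1 (r = 0.967), Eif1ad (0.955), Aurka (0.955), Ints1 (0.953) and Cdca5 (0.953). Fos, with fewer counts, had lower values, and its highest were Nit1 (0.807), Vangl1 (0.785), Ogfod2 (0.782), Fbxo46 (0.780) and Bbs2 (0.773).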

How the data were processed

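The authors deposited raw read counts per gene, whole numbers without normalization (unit: counts). Per the submitters' processing notes, bcl2fastq and STAR were used with build GRCm39, without versions. For the counting program, its use of strand and the annotation, the entry is: not given in the sources used here. Per the labels, RNA was depleted of ribosomal RNA, libraries were made with NEBNext Ultra II, and all 12 carry the same batch label. Symbols came from GENCODE M21 by Ensembl identifier (52403 of 52636 matched), and promoter windows from RefSeq, build GRCm38.p6. No coordinates of the counted genes are given.

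Counts were tested in R 4.3.3 with edgeR 4.0.16 (quasi-likelihood F test, TMM, filterByExpr with minimum count 10 and minimum total 15; residual df 7, prior df 7.96). All 12 libraries entered a single model with a coefficient for each group. P-values are two-sided and Benjamini-Hochberg adjusted over the 15859 genes tested, with calls under 0.05. The SE is the size of the log2 fold change divided by the square root of F, and 95% intervals use the t distribution with the total df. CPM are TMM-normalized. Without molecular identifiers, reads are not independent molecules.

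The 10 genes, the lists and the tests were chosen with earlier results of these data known. Of each other pathway list, called genes among the first 4 by p in each main comparison are named. For Dusp6 and Fos the 5 genes with the highest r are named. Alternatives were other scalings, filters and samples, DESeq2 1.42.0, limma-voom (limma 3.58.1), a block by replicate number, the library's sex as a covariate and each library left out. The model was also run on counts simulated from its own fitted spread, which does not check the scaling or the tissue makeup.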

Additional observations from a re-analysis of the deposited data

Results flagged for a closer look

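The test of the FGFRi effect minus the HOM effect, over all genes in edgeR's quasi-likelihood fit, set 2 of the 10 genes apart. Egr1 differed by -1.11 ± 0.22 (SE; adjusted p = 0.0178) and Ier2 by -0.51 ± 0.13 (SE; adjusted p = 0.0443), both lower with the inhibitor. Of the FGFRi effect and the HOM effect, Egr1 had -1.29 ± 0.17 and -0.18 ± 0.15, and Ier2 -0.60 ± 0.09 and -0.09 ± 0.09 (SE). The Egr1 difference was called in 9 of 9 alternatives that kept all libraries and in 9 of 12 that left one out, and the Ier2 difference in 4 of 9 and 2 of 12. None of these alternatives had the library's sex as a covariate, which was fitted for the FGFRi effect and the HOM effect only. With it the HOM effect of Egr1 was 0.20 ± 0.24 (SE). Both HOM libraries read as female and their controls as male, so sex and the homozygous genotype cannot be told apart. Groups of 2 or 3 libraries are too small for a test of single outlying libraries.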

How the results depend on the processing

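Depth limits the scarce genes: Egr2, Fos and Dusp5 had as few as 9, 18 and 19 counts in a library. Dusp4 and Egr1 stayed lower with the inhibitor under every alternative run, whereas the other calls depended on scaling or on single libraries. With library totals, 3 of the 10 genes were lower with the inhibitor (1303 genes called in all), and 1 in the difference of effects (169 in all). In HOM glands Dusp6 turned to 0.13 and Ier2 to 0.058. With epithelial scaling, 2 were lower and 3 higher with the inhibitor (9098 in all), 4 higher in HOM glands (9108), 1 lower in the difference (209), and 320 genes were called in HET against WT. It turned the signs of Dusp6 (0.069), Fos (0.012), Phlda1 (0.34) and Rps6ka1 (0.18) with the inhibitor. In HOM glands it turned Dusp4 (0.085), Dusp5 (0.17), Dusp6 (0.44), Egr1 (0.27), Fos (0.12), Ier2 (0.37), Ier3 (0.093), Phlda1 (0.11), Dusp16 (0.12) and Btg2 (0.022). These turns follow the shift of all genes by that scaling. With DESeq2 size factors, or without mitochondrial and rRNA-like genes, 1 gene was lower in the difference. Without the filter, 1 gene was lower in HOM glands (1449 in all, Dusp6 at 0.010), 1 higher in HET against WT (655 in all), and 1003 and 797 genes were called in the difference and in DMSO against WT, with Dusp4 gained in the difference. With at least 1 CPM in every library, Dusp6 in HOM glands was 0.0012. Fits of the compared groups alone gave 1406 genes in HOM, and for the difference they are the same fit of all 12 libraries. Against WT alone 1 gene was lower in HOM glands, with Dusp5 at 0.015 and Egr1 at 0.076. Against HET alone 237 genes were called, with Dusp6 at 0.086 and Egr2 at -0.029. A covariate for sex, set by DMSO library 2 alone, gave 2153 genes with the inhibitor and 46 in HOM glands, where Dusp1 was -0.0091 and Egr1 0.20. The HOM calls of Dusp16, Ccn2, Nfkbiz, Btg2 and Nr4a2 were lost with that covariate (adjusted p of 0.343 to 0.789). DESeq2 called 1 of the 10 lower in HOM glands. The cause of these changes was not tested where none is named.

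With each library left out, the genes called lower with the inhibitor ranged from 3 to 5 (1896 to 3099 in all), in the difference from 0 to 3 (77 to 560), and in HOM glands from 0 to 1 (140 to 658). All calls ranged from 25 to 195 in HET against WT and from 110 to 370 in DMSO against WT. Fos ranged from -0.40 to 0.25 in the difference, and in HOM glands Dusp1 from -0.015 to 0.17 and Dusp6 from -0.046 to 0.014. A group left with 1 library is assumed to vary like the others. The replicate block gave 5 genes lower with the inhibitor, 0 in HOM glands and 1 in the difference (277 in all). The labels do not state that the numbers pair libraries, and the values cannot settle it. For same-numbered FGFRi and DMSO libraries, deviations from the group means of log2 CPM correlated over genes at -0.09, -0.12 and -0.03. HOM gave -0.04 with HET and -0.15 with WT, and HET gave -0.13 with WT. In groups of 2 the deviations mirror each other, so each such value is single and its sign depends on the numbering. A block in which WT numbers were crossed, chosen after seeing the data, called 0 of the 10 genes lower in HOM glands and 0 in HET glands.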
